A study of Mus musculus with 18 samples.

Results

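Osteoblasts make the mineralized matrix of bone, and osteocytes are osteoblasts that became enclosed in it. Bone cell genes were followed here in cartilage of mice with a ruptured anterior cruciate ligament (ACL): Bglap, Bglap2, Alpl, Ibsp, Dmp1, Phex, Mepe, Ifitm5 and Fgf23. These 9 genes were chosen by name, each matched 1 gene of the annotation, and they are 9 of the 49184 genes whose estimated counts were summed. All 9 passed the filter on low counts in both fits, of 21129 genes without and 21262 genes with the day 7 contralateral libraries.

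All animals were male C57Bl/6J mice, 12 weeks old per the methods of the study. A single load of 12 N ruptured the ACL of the right knee under isoflurane and buprenorphine, and cartilage was taken at day 1 or day 7 from the injured right knee and from the unloaded left knee of the same animals, called contralateral. Naïve mice had no load. There were 6 naïve libraries and 3 libraries in each of the day 1 contralateral, day 1 injured, day 7 contralateral and day 7 injured groups, with totals between 16074762 and 41794005 estimated counts and a median of 25465706.5. Each library is a pool. The methods give 6 mice at day 1, 12 at day 7 and 6 naïve mice, and the supplement states that 4 mice were pooled at day 7. From these totals a day 1 library would hold tissue of 2 mice. A naïve library would hold 2 knees, and with left and right knees pooled separately the naïve libraries share animals. The deposited design text instead gives 4 mice for every sample. The labels do not say which libraries share mice, and p-values therefore measure the spread between these libraries.

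The tissue is labelled cartilage and the cell type chondrocyte. The plane of dissection was the tidemark, the line between unmineralized and calcified cartilage. The cartilage collagen Col2a1 was at 356 ± 122 TPM (SD, n = 6) in the naïve libraries, where TPM is transcript abundance scaled for length and depth, and the cartilage proteoglycan gene Acan at 27.5 ± 11.01 TPM. Transcripts of genes typical of bone were present beside them, with the type I collagen gene Col1a1 at 1093 ± 352 TPM and Bglap at 226 ± 66.2 TPM. Markers of blood were higher still, since the haemoglobin gene Hbb-bs was at 16179 ± 2234 TPM. In RNA from whole tissue, fewer cells of a type and less RNA per cell cannot be told apart.

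One library stood apart. In day 7 contralateral replicate 1 the 10 most abundant genes held 42.5% of the estimated counts, against 16.6% to 29.8% in the 17 other libraries, and its ratio of Col2a1 to Ibsp was 21.0 against 3.12 to 6.55 elsewhere. Results that rest on this library are given with and without it.

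Bone matrix genes fall into a few roles. Type I collagen is laid down first, and small acidic proteins of the integrin-binding ligand N-linked glycoprotein family (Ibsp, Dmp1, Mepe and Spp1, whose genes lie side by side) bind mineral within it. Alkaline phosphatase removes the mineral inhibitor pyrophosphate, osteocalcin marks the mature osteoblast, and osteocytes govern phosphate through Phex, Dmp1 and the hormone Fgf23.

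Osteocalcin is encoded in the mouse by neighbouring gene copies on chromosome 3, and their sequences decide how far they can be measured apart. The coding sequences of Bglap (GRCm38, chr3:88383635-88384415, minus strand, introns left out) and Bglap2 (chr3:88377870-88378650, minus strand) are both 288 bases long and differ at 4 bases, shown here in capitals:
Bglap: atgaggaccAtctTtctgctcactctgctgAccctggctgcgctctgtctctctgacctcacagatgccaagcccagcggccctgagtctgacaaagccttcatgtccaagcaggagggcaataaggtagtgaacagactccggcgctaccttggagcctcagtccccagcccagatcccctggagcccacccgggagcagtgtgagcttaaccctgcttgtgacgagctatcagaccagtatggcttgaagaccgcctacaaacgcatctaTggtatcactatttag
Bglap2: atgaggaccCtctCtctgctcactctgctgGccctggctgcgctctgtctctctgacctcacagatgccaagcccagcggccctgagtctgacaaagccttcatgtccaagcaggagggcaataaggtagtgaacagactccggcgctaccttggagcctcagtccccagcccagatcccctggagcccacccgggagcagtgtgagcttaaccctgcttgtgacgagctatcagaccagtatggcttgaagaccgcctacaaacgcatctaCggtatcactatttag
The longest stretch without a difference is 241 bases. Of the 31-base stretches of the main Bglap transcript, 80.5% also occur in the Bglap2 transcript, and 74.8% of those of Bglap2 occur in Bglap. The estimated counts of the pair were therefore divided between them from few distinguishing bases. Their levels are given separately and should be read as a pair, and the third copy, Bglap3, has a coding sequence that is 96.9% identical to that of Bglap2 and 95.5% identical to that of Bglap.

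The stretches before the start sites of Bglap and Mepe are shown as examples of members that hold the core letters bound by RUNX factors, of which RUNX2 directs osteoblast differentiation, and the choice was made after the letters had been searched. The letters searched were TGTGGT and, for the other strand, ACCACA, and they are in capitals. The sequences are from RefSeq (GRCm38.p6) and end at the base before the start site, and they cover chr3:88384467-88384716 on the minus strand for Bglap and chr5:104325079-104325328 on the plus strand for Mepe:
Bglap: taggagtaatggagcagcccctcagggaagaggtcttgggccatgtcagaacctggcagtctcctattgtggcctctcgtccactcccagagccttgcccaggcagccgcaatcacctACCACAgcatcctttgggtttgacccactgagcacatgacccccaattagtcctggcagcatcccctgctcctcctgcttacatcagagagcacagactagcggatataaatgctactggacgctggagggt
Mepe: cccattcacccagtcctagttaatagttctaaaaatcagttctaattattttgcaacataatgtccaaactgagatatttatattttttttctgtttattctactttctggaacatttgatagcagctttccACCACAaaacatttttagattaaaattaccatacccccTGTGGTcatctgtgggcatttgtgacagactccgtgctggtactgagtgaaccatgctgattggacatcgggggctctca
The letters occurred at 132 to 127 bases before the start site in Bglap, and at 118 to 113 and 80 to 75 bases before it in Mepe. Promoters were listed for 8 of the 9 genes, Bglap2 being the exception, with 10 start sites in all. The letters were in 3 of these 10 stretches of 250 bases, those of Bglap and Mepe and 1 of the start sites of Dmp1, and in 14.05% of all 32851 stretches. They were not in the listed stretches of Ibsp, Alpl, Phex, Ifitm5 and Fgf23. A match of letters is a description and not a binding site.

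In the naïve libraries the bone cell genes spanned a wide range of TPM, a level per transcript length. Bglap was highest at 226 ± 66.2 TPM (SD, n = 6), followed by Bglap2 at 139 ± 35.2, and the ranges of the pair overlapped. Ibsp, bone sialoprotein, followed at 68.9 ± 12.8 TPM. Alpl, the tissue-nonspecific alkaline phosphatase, was at 25.5 ± 6.65 TPM. The ranges of Bglap2, Ibsp and Alpl did not overlap over the 6 naïve libraries.

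The genes of the osteocyte followed. Dmp1, dentin matrix protein 1, was at 14.1 ± 3.72 TPM and Mepe, matrix extracellular phosphoglycoprotein, at 10.5 ± 1.53 TPM, with overlapping ranges. Phex, a membrane endopeptidase lost in X-linked hypophosphataemia, was at 5.58 ± 1.44 TPM and overlapped with Ifitm5, a membrane protein of osteoblasts, at 2.99 ± 0.82 TPM. Fgf23, the phosphate-lowering hormone of osteocytes, was lowest at 0.15 ± 0.06 TPM, and its 3 to 23 estimated counts per library leave little precision. Bglap ranked 175th and Ibsp 487th of the 49184 genes by mean naïve TPM, and Fgf23 ranked 22007th. In every library Bglap was first and Fgf23 ninth. Ibsp passed Bglap2 to second place in 2 libraries, both day 7 injured.

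**Figure D1:**
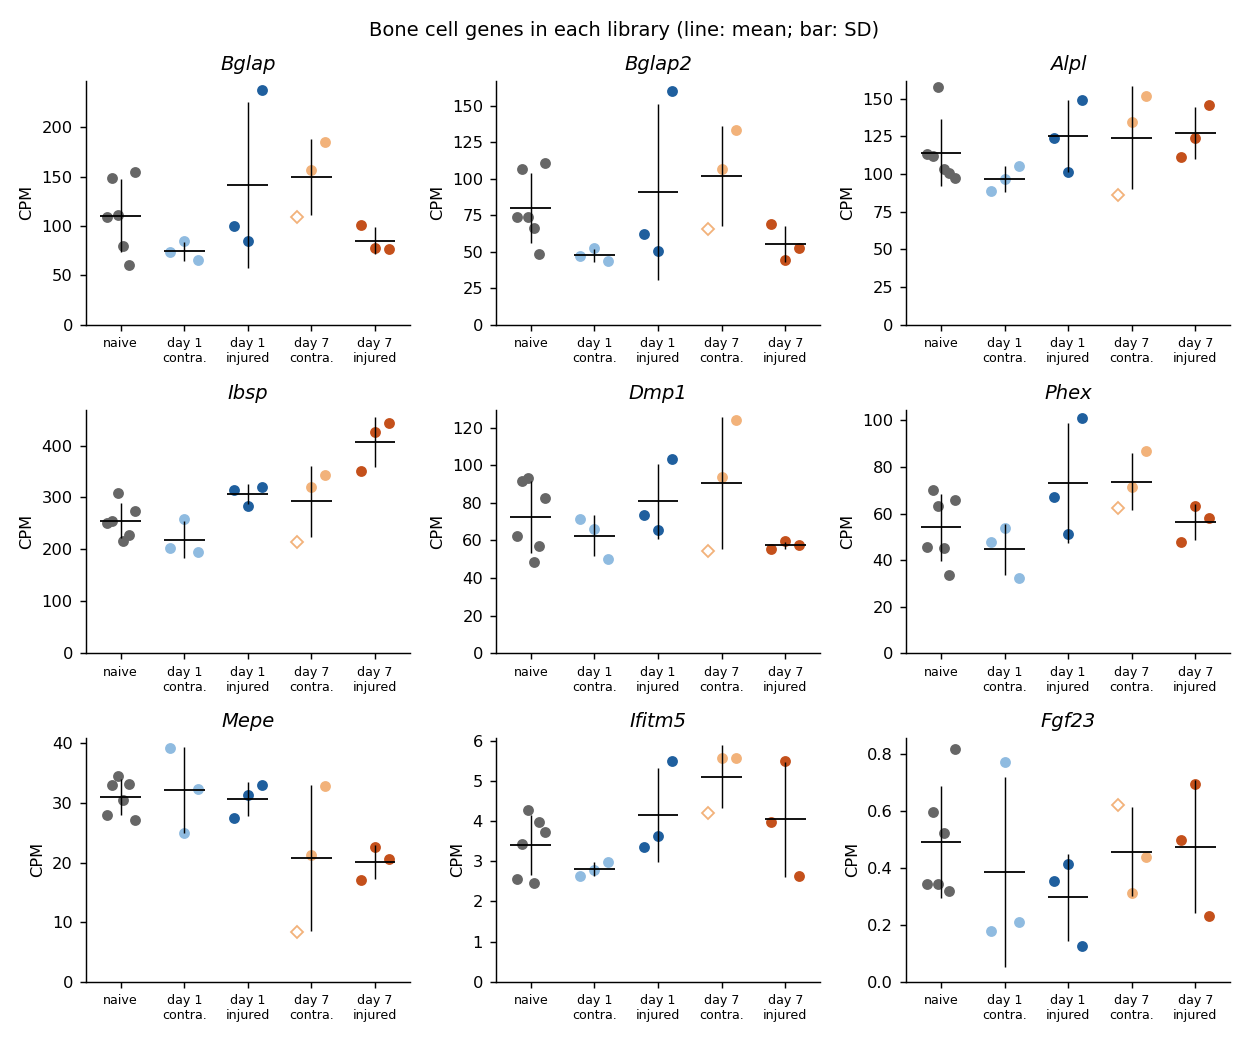
Normalized level of each of the 9 bone cell genes (CPM, counts scaled to the normalized depth of the library, linear axes from 0) in every library, with the group mean (line) and SD (bar), n = 6 naïve and 3 in each other group. The open diamond is day 7 contralateral replicate 1, and the 3 day 7 injured libraries lie above all naïve libraries for Ibsp and below them for Mepe.

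The main question was how these genes stood in the injured knee at day 7 against naïve knees. Ibsp was higher and Mepe was lower, and the other 7 genes did not pass the test. Levels from here on are CPM, counts scaled to library depth after trimmed-mean normalization, and changes are log2 fold changes from the quasi-likelihood test of edgeR, called at a false discovery rate (FDR) of at most 0.05 and at least 1.5-fold. By this rule 2 of the 9 genes were called, against 16.6% of the 21129 genes tested. The 1 higher compares with 10.4% of all genes called higher, and the 1 lower with 6.11% called lower. The median change of the 9 genes was -0.06, and that of all genes tested was -0.04.

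Ibsp encodes bone sialoprotein, which starts hydroxyapatite crystals and is made by osteoblasts and also by hypertrophic chondrocytes and osteoclasts. Its naïve level ranged from 217 to 308 CPM with a median of 254, and the day 7 injured libraries were at 351, 425 and 444 CPM. All 3 injured libraries were above all 6 naïve libraries, a separation that 17.4% of all genes tested showed in that direction. The log2 fold change was 0.69 ± 0.12 (SE, 95% interval 0.44 to 0.94, FDR = 3.91e-04), a fold of 1.61. The call held in every alternative fit and threshold tried and with each library left out, while the ratio of mean levels, 1.59 by CPM, was 1.30 by the deposited TPM.

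Mepe encodes a phosphoglycoprotein of osteocytes whose fragments inhibit mineralization. The naïve libraries ranged from 27.1 to 34.5 CPM with a median of 31.7, and the day 7 injured libraries were at 17.01, 22.7 and 20.6 CPM. All 3 injured libraries were below every naïve library, as for 10.8% of all genes tested. The log2 fold change was -0.61 ± 0.14 (95% interval -0.90 to -0.32, FDR = 0.00342). This call lies close to the fold limit: the change was -0.50 without day 7 injured replicate 1 and -0.58 without naïve replicate 3, each under 1.5-fold, and with all 18 libraries in the fit the FDR was 0.0923 at a change of -0.63.

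The genes of mature osteoblasts did not pass. Bglap was at 101, 78.1 and 76.8 CPM in the day 7 injured libraries and at 60.9 to 154 CPM, median 110.1, in the naïve libraries (log2 fold change -0.35, 95% interval -1.02 to 0.31, FDR = 0.415). Bglap2 was at 68.8, 44.4 and 52.4 CPM against 48.7 to 111 CPM, median 73.7 (-0.52, interval -1.20 to 0.17, FDR = 0.242). Both genes overlapped between the groups, and naïve libraries alone spread over more than the fitted change. Alpl was at 112, 124 and 146 CPM against 97.6 to 158 CPM, median 108 (0.17, interval -0.14 to 0.49, FDR = 0.400).

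Among the osteocyte genes other than Mepe, Dmp1 was nearly constant over the day 7 injured libraries, at 55.5, 59.4 and 57.4 CPM, within a naïve range of 48.6 to 93.3 CPM. Its log2 fold change was -0.32 (interval -0.74 to 0.11, FDR = 0.252). Phex was at 48.0, 63.2 and 57.9 CPM against 33.8 to 70.3 CPM (0.08, interval -0.43 to 0.59, FDR = 0.825). The groups overlapped for both genes. Ifitm5 was at 3.99, 5.51 and 2.63 CPM against 2.45 to 4.28 CPM (0.25, interval -0.26 to 0.76), and Fgf23 was at 0.50, 0.70 and 0.23 CPM against 0.32 to 0.82 CPM (-0.06, interval -1.18 to 1.05). The interval of Fgf23 spans more than a doubling in either direction, so a change of that size was not detectable at this depth.

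The injured knee was next compared with the contralateral knee at day 7. By edgeR 0 of the 9 genes were called, against 12.6% of the 21262 genes tested (9.33% higher and 3.22% lower), and DESeq2 and limma-voom also called 0. With only the groups compared in the edgeR fit, Bglap was called lower (-0.82, FDR = 0.0462). At an unadjusted p under 0.05 there were 4 genes, Ibsp higher and Bglap, Bglap2 and Dmp1 lower, and 6630 of all 21262 genes. The median change was -0.36 for the 9 genes and -0.05 for all genes tested. This comparison and the previous one share the day 7 injured libraries.

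The contralateral libraries varied widely. Ibsp was at 215, 321 and 343 CPM in them, all below the injured libraries (0.47 ± 0.17, FDR = 0.0586). Bglap was at 109, 157 and 185 CPM, all above the injured libraries (-0.82 ± 0.35, FDR = 0.124). Of all genes tested, 18.6% separated these groups with the injured libraries higher, as Ibsp did, and 14.3% with them lower, as Bglap did. Bglap2 was at 65.9, 106 and 134 CPM (-0.89 ± 0.37, FDR = 0.111), and Dmp1 was at 54.3, 93.5 and 124 CPM (-0.66 ± 0.27, FDR = 0.107), both overlapping with the injured group through replicate 1. In that replicate every gene of the 9 except Fgf23 was at the lowest level of its group.

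Without day 7 contralateral replicate 1, Dmp1 was called lower in the injured knee (-0.90 ± 0.25, FDR = 0.0200), Ibsp moved to 0.32 ± 0.15 (FDR = 0.172), and Bglap and Bglap2 moved to -0.98 (FDR = 0.0915) and -1.10 (FDR = 0.0640). The share of all genes called was then 11.3%. Mepe was at 8.33, 21.2 and 32.8 CPM in the contralateral group, and its change went from -0.07 (FDR = 0.909) with replicate 1 to -0.41 (FDR = 0.170) without it. The lower Mepe call against naïve knees thus has no counterpart call against contralateral knees in either fit. Leaving out replicate 3 in its place, Ibsp was called higher at 0.59 (FDR = 0.0343). Over all fits with 1 library of these groups left out, the change of Dmp1 ranged from -0.90 to -0.38, with an FDR from 0.0200 to 0.384.

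**Figure D2:**
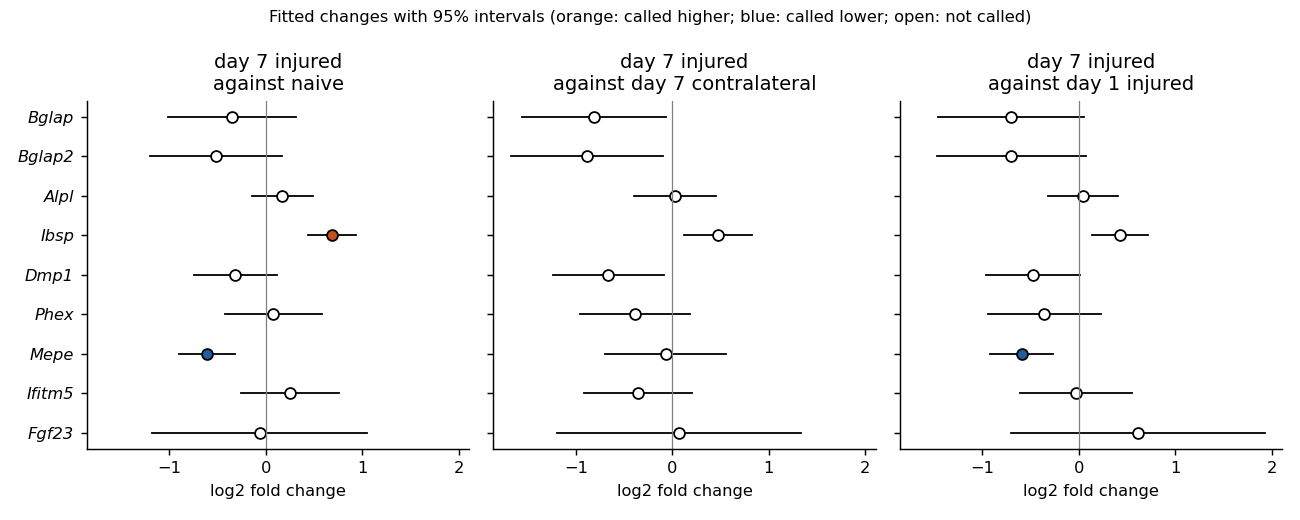
Fitted log2 fold changes (points) with 95% intervals (lines) of the 9 genes in 3 comparisons of the day 7 injured group, which share those 3 libraries. Filled points passed the call, which were Ibsp (0.69) and Mepe (-0.61) against naïve and Mepe (-0.59) against day 1 injured.

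Between the injured knees at day 7 and day 1, Mepe was lower again. The day 1 injured libraries were at 27.5, 31.4 and 33.1 CPM, all above the day 7 injured libraries, and the log2 fold change was -0.59 ± 0.15 (FDR = 0.0115). It was 1 of the 9 genes called, against 15.4% of all genes (9.04% higher and 6.38% lower). Without day 7 injured replicate 1 the change was -0.48 (FDR = 0.0551), without day 1 injured replicate 3 it was -0.54 (FDR = 0.0382) and under the fold limit, and with all 18 libraries fitted it was -0.61 with an FDR of 0.161. Ibsp was at 314, 284 and 319.9 CPM at day 1, all below the day 7 libraries, with a change of 0.43 ± 0.14 (FDR = 0.0345) that stayed under 1.5-fold. Dmp1 was at 73.5, 65.6 and 103.2 CPM at day 1, all above the day 7 libraries, and did not pass (-0.47 ± 0.23, FDR = 0.145). Of all genes tested, 22.8% separated these groups with the day 7 libraries higher, as for Ibsp, and 17.5% with them lower, as for Mepe and Dmp1.

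At day 1 no gene of the whole table was called in the injured knee, neither against naïve knees (0% of 21129 genes) nor against contralateral knees (0%). DESeq2 and limma-voom called 0 of the 9 genes in both comparisons. Against the contralateral knee 7 of the 9 changes were above 0 with a median of 0.48, and 4 genes were at an unadjusted p under 0.05 by edgeR with an FDR of 0.755 each, as were 1383 of all 21129 genes. Ibsp was at 202, 259 and 195 CPM in the day 1 contralateral libraries, below all day 1 injured libraries (0.48 ± 0.14). Altogether 3 of the 9 genes, Ibsp, Bglap and Ifitm5, separated these groups with the injured libraries higher, as 5.09% of all genes tested did, and 0 separated them with the injured libraries lower, as 6.07% did. Against naïve knees 1 gene, Ibsp, was at an unadjusted p under 0.05 (0.26 ± 0.12, FDR = 0.987), as were 958 of all 21129 genes.

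The osteocalcin pair at day 1 rested on 1 library. Bglap was at 100.4, 85.3 and 238 CPM in the day 1 injured libraries and at 73.6, 84.6 and 65.3 CPM in the contralateral ones. Day 1 injured replicate 3 held the highest Bglap, Bglap2 and Phex of all 18 libraries, and Bglap2 was at 62.0, 50.4 and 161 CPM. The change of Bglap was 0.92 ± 0.36 (FDR = 0.755) and, without that replicate, 0.31.

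The control groups were compared with each other too. Neither the day 1 contralateral libraries (0% of 21129 genes) nor the day 7 contralateral libraries (0% of 21262 genes) had any gene called against naïve knees by edgeR, and DESeq2 and limma-voom called 0 of the 9 genes. At day 1, 8 of the 9 changes were below 0 with a median of -0.27, and Bglap2 had an unadjusted p under 0.05 (-0.74 ± 0.32, FDR = 0.9998), as had 554 of all 21129 genes. At day 7, 7 of the 9 were above 0 with a median of 0.33, and 2 genes had an unadjusted p under 0.05, Ifitm5 (0.59 ± 0.23, FDR = 0.263) and Mepe (-0.56 ± 0.26, FDR = 0.326), as had 3219 of all 21262 genes. The change of Mepe was -0.20 without day 7 contralateral replicate 1.

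The injury effect, injured against contralateral, was also compared between day 7 and day 1. None of the 9 genes passed by edgeR, against 3.77% of all genes, and limma-voom called 0 whereas DESeq2 called 2, Bglap and Bglap2. At an unadjusted p under 0.05 there were 5 genes, all with a lower effect at day 7: Bglap (-1.74 ± 0.50, FDR = 0.0629), Bglap2 (-1.82 ± 0.53, FDR = 0.0657), Phex (-1.10 ± 0.38), Dmp1 (-1.03 ± 0.39) and Ifitm5 (-0.92 ± 0.38). Of all 21262 genes, 3458 were at an unadjusted p under 0.05 in either direction. The median of the 9 genes was -0.92 and that of all genes -0.03. Without day 7 contralateral replicate 1, Bglap (-1.89, FDR = 0.0428), Bglap2 (-2.02, FDR = 0.0360) and Dmp1 (-1.27, FDR = 0.0411) were called, against 4.41% of all 21808 genes then tested. Without day 1 injured replicate 2, Bglap (-1.997) and Bglap2 (-2.11) were called, whereas without day 1 injured replicate 3 the differences were -1.13 (FDR = 0.189) and -1.12 (FDR = 0.195). The share of all genes called is not given here for DESeq2 or for the fits without a day 1 library. Ibsp and Mepe, the genes called against naïve knees, had effects that differed by -0.01 ± 0.24 and 0.00 ± 0.42 between the days.

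Ratios within a library do not depend on how libraries are scaled to each other. The ratios below were chosen after the values were seen and are given without a test, and all but the last share Ibsp as the denominator, so that they are not independent of each other. The TPM of Mepe was 0.0608, 0.0670 and 0.0585 of that of Ibsp in the day 7 injured libraries, against 0.125 to 0.183 in the naïve libraries. Only day 7 contralateral replicate 1, at 0.0486, was lower among the 15 other libraries, which otherwise began at 0.0832.

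Dmp1 was at 0.116, 0.102 and 0.0941 of Ibsp in the day 7 injured libraries, and the 15 other libraries lay between 0.164 and 0.264. Bglap was at 2.15, 1.35 and 1.37 times Ibsp, and the other libraries lay between 2.18 and 5.59. Alpl was at 0.258, 0.244 and 0.275 of Ibsp, and the others lay between 0.294 and 0.447. For these 3 genes every day 7 injured library was below every other library, by a narrow margin for Bglap and Alpl. The share of all genes whose ratio to Ibsp separated in this way is not given, so the separation is a description only. Ibsp itself was called higher in these libraries against naïve knees, and a higher denominator lowers every ratio over it. Dmp1, Bglap and Alpl were not called against naïve knees on their own. How much of each lower ratio comes from Ibsp was not tested. Phex was at 0.0511 to 0.0559 of Ibsp in the injured group and at 0.0548 in naïve replicate 5, so that the ranges touched. In contrast, Bglap2 stood at 0.493 to 0.59 of Bglap in the injured group and at 0.51 to 0.686 in the others.

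**Figure D3:**
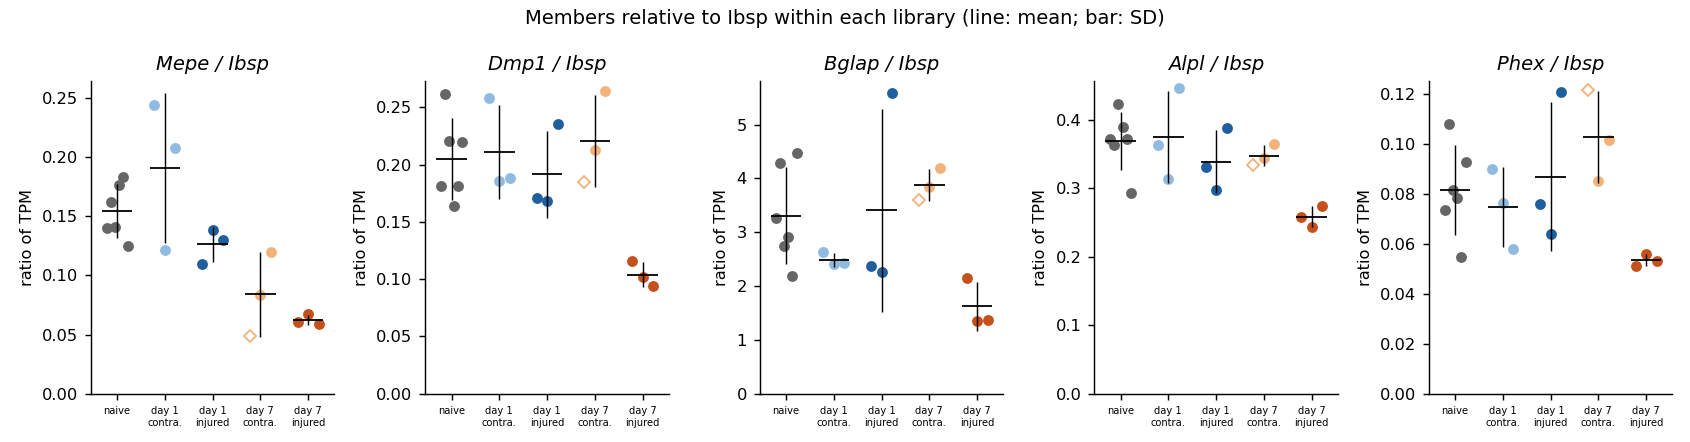
Ratio of the TPM of Mepe, Dmp1, Bglap, Alpl and Phex to that of Ibsp in each library (linear axes from 0), with group mean (line) and SD (bar), n = 6 naïve and 3 in each other group. The day 7 injured libraries are the lowest for Dmp1 (0.0941 to 0.116), Bglap (1.35 to 2.15) and Alpl (0.244 to 0.275), and the open diamond is day 7 contralateral replicate 1.

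Other genes of bone formation were taken from lists of osteoblast, osteocyte, phosphate, Gla protein and integrin-binding glycoprotein genes. They came to 30 genes besides the 9, of which 29 were tested, the exception being the dentin gene Dspp, which was at or under 3 counts in 8 libraries. Between day 7 injured and naïve knees 9 of the 29 were called higher and 2 lower, against 10.4% and 6.11% of all genes, and their median change was 0.29. The lists were chosen with earlier results of these data known, so these shares, here and below, describe the lists and test nothing. Under another scaling, with DESeq2 size factors, the counts were again 9 and 2. Several of these genes are also made by fibroblasts and chondrocytes.

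Of the 12 osteoblast genes, 4 were called higher and 1 lower. Col1a1 and Col1a2, which encode the chains of type I collagen, were higher by 2.05 ± 0.25 (FDR = 1.72e-05) and 1.91 ± 0.23 (FDR = 1.57e-05). Col1a1 was at 51048, 46942 and 54654 CPM in the day 7 injured libraries and at 8537 to 16715 CPM in the naïve ones, without overlap, but it was also at 52393 CPM in day 7 contralateral replicate 1. The matrix protein gene Sparc was higher by 1.53 ± 0.16 and the osteoblast cadherin gene Cdh11 by 1.14 ± 0.11. The 1 called lower was Bglap3 (-1.48 ± 0.49, FDR = 0.0329), at 0.09 to 0.37 CPM against 0.53 to 0.80 CPM, a gene at few counts that shares sequence with Bglap and Bglap2.

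Transcription factor genes of the osteoblast were not called in this comparison. Runx2 was at 54.9, 63.0 and 63.2 CPM against 52.3 to 76.6 CPM (0.00 ± 0.10), Sp7, which encodes osterix, was at 0.02 ± 0.15 and Dlx5, a homeobox factor, at 0.25 ± 0.20. Spp1, which encodes osteopontin of the same glycoprotein family as Ibsp and Mepe, was at 976, 1042 and 996 CPM against 609 to 939 CPM and missed the threshold (0.42 ± 0.15, FDR = 0.0504). Ibsp (0.69), Spp1 (0.42), Dmp1 (-0.32) and Mepe (-0.61), whose genes lie between 104202613 and 104441050 on chromosome 5, thus had fitted changes of both signs. Of the 4 tested genes of this family 1 was called higher and 1 lower, and so were 1 and 1 of the 4 Gla protein genes.

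Of the 10 osteocyte genes, 3 were called higher and 1 lower. Mmp14, a membrane protease needed for osteocyte processes, was higher by 2.82 ± 0.15 (FDR = 4.61e-09), the gap junction gene Gja1 by 1.20 ± 0.14 and the fibroblast growth factor receptor gene Fgfr1 by 0.83 ± 0.10. Sost, which encodes sclerostin, the inhibitor of Wnt signalling that osteocytes secrete, was lower (-0.95 ± 0.22, FDR = 0.00488). Its naïve libraries ranged from 15.6 to 29.5 CPM and the day 7 injured ones were at 12.8, 12.6 and 9.06 CPM, without overlap. Sost and Mepe were the genes of mature osteocytes called lower, whereas Dmp1, Phex and Fgf23 were not called.

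Of the 11 phosphate and mineral genes, 3 were called higher and none lower in this comparison. Enpp1, which makes the mineral inhibitor pyrophosphate, was higher by 2.04 ± 0.19 (FDR = 1.71e-06), and Mgp, the matrix Gla protein that inhibits mineralization, by 0.83 ± 0.14 (FDR = 3.41e-04). Fgfr1 was the third. The phosphatase gene Phospho1 was at 0.05 ± 0.17, the phosphate transporter genes Slc20a1 and Slc20a2 at 0.02 ± 0.10 and 0.07 ± 0.08, and the kinase gene Fam20c, whose product phosphorylates the secreted glycoproteins, at 0.11 ± 0.13.

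**Figure D4:**
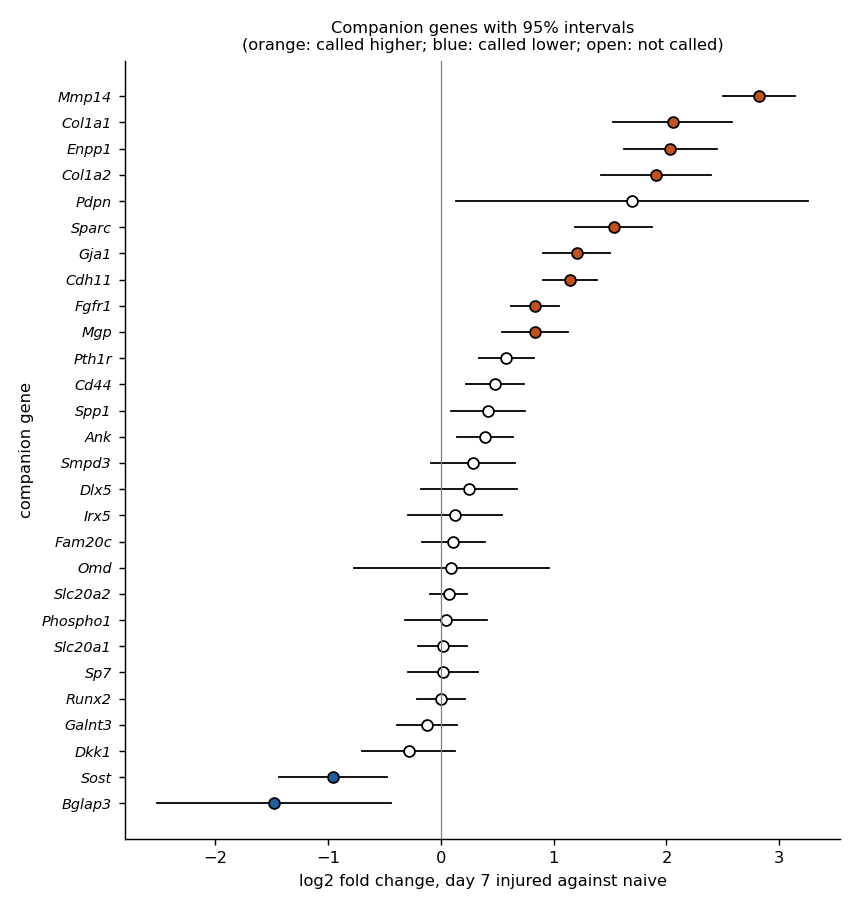
Fitted log2 fold changes (points) with 95% intervals (lines) of companion genes, day 7 injured against naïve. Filled points passed the call, 9 higher (Mmp14 furthest, at 2.82) and 2 lower (Sost and Bglap3).

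Against the day 7 contralateral knee 8 of the 29 companion genes were called higher and 2 lower, where 9.33% and 3.22% of all genes were, and without replicate 1 of that group 9 and 2. Mmp14 (2.44), Enpp1 (2.38), Sparc (1.28), Mgp (1.23), Gja1 (1.00), Cdh11 (0.87) and Fgfr1 (0.63) were higher. Pdpn, which encodes podoplanin of the early osteocyte, was called higher (2.74 ± 0.89, FDR = 0.0396) and was not called without replicate 1, at a change of similar size (2.66 ± 1.06, FDR = 0.104). Sost (-1.54 ± 0.35, FDR = 0.00458) and Bglap3 (-1.81 ± 0.51, FDR = 0.0190) were called lower. Sost was at 56.6, 17.1 and 27.05 CPM in the contralateral group, and without the first of these its change was -0.92 ± 0.28 (FDR = 0.0336). Against the day 1 injured knee 9 companion genes were called higher and 2 lower, where 9.04% and 6.38% of all genes were, and in the 4 comparisons without day 7 injured libraries edgeR called 0. Col1a1 was not called against the day 7 contralateral knee with replicate 1 (0.77, FDR = 0.188) and was called without it (1.48, FDR = 0.00609).

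Some markers of other cells were called between the same groups, and their part in the results above was not tested. Of all genes tested, 10.4% were called higher and 6.11% lower in day 7 injured against naïve knees. The marker counts in this and the next paragraph stand beside those shares. Of 7 synovial fibroblast markers 4 were called higher in day 7 injured against naïve knees, and their summed level was 694, 796 and 819.9 CPM against 277 to 397 CPM. Pdgfra led them by CPM in the naïve libraries (mean 100.7 CPM, and 249 CPM in the day 7 injured ones), and Dpt in the day 7 injured libraries (mean 253 CPM against 50.2 CPM in the naïve ones). Of 12 chondrocyte markers 4 were called higher, summed at 7988, 9425 and 9920.2 CPM, against 4469 to 8237 CPM, led by Col2a1. Of 8 osteoclast markers 1, the cathepsin gene Ctsk, was called higher (1.25 ± 0.16), and their sum, led by Mmp9, was 1900.1, 1914 and 1777 CPM against 1059 to 1688 CPM. These 3 sums were above the naïve range in every day 7 injured library for fibroblasts and osteoclasts but not for chondrocytes. In the day 7 contralateral libraries the osteoclast sum was also high, at 1636, 2308 and 2140 CPM. The fibroblast sum there was 364, 320 and 308 CPM. Against those contralateral knees 0 of the 8 osteoclast markers were called and 4 of the 7 fibroblast markers were called higher, beside 12.6% of all genes called. Mmp9, though the largest osteoclast marker, was not called. Against naïve knees the fitted changes of the 8 osteoclast markers ran from 0.02 to 1.25, the latter being Ctsk.

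Of 8 hypertrophic chondrocyte markers, which include Ibsp, Alpl and Spp1 themselves, 3 were called higher, and the defining collagen gene Col10a1 was at -0.02 ± 0.30. Some markers of marrow and fat were lower. Of the 8 erythroid markers found of 9 listed, 5 were called lower (sum of 16747 to 27576 CPM against 30900.4 to 41408 CPM, led by Hbb-bs). Of 10 marrow myeloid markers 2 and of 6 adipocyte markers 3 were called lower, and of 7 muscle, 8 B cell and 6 macrophage markers none were called. Of 6 endothelial markers 4 were called higher. No marker of these lists was at 0 in any library.

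Over all 18 libraries the bone cell genes varied together within groups, and correlations among other sets of genes are not given here. Over the 8 genes with a mean of at least 1 CPM, which leaves out Fgf23, the 28 pairwise correlations of the deviations from the group means were all above 0, from 0.23 (Bglap and Mepe) to 0.97 (Bglap and Bglap2), with a median of 0.52 over 18 libraries. Without day 7 contralateral replicate 1 the median was 0.34, 25 were above 0, and Dmp1 and Phex reached 0.87. The pairs then below 0 were those of Mepe with Bglap (-0.06), Bglap2 (-0.04) and Ibsp (-0.03). These values describe libraries that share pools of tissue, depth and scaling, and Bglap and Bglap2 share sequence too.

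The genes most like the bone cell genes were found by correlating each gene's deviations with the mean standardized deviation of these 8 genes, over 18 libraries and 15990 genes. The 10 closest included Fat3 (r = 0.94), Cdh2 (0.92), Ptprz1 (0.91), Ppfia2 (0.91), Enpp6 (0.91), Entpd3 (0.90), Cdh11 (0.89) and Acp5 (0.89). Cdh11 was on the osteoblast list and Acp5, tartrate-resistant acid phosphatase, on the osteoclast list. Without day 7 contralateral replicate 1, 4 of these 10 were among the closest 10, Entpd3, Fat3 and Ppfia2 among them, and Col1a1 went from 0.08 to 0.90 and Col1a2 from 0.13 to 0.90. Sost was at -0.15 with that library and 0.46 without it.

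**Figure D5:**
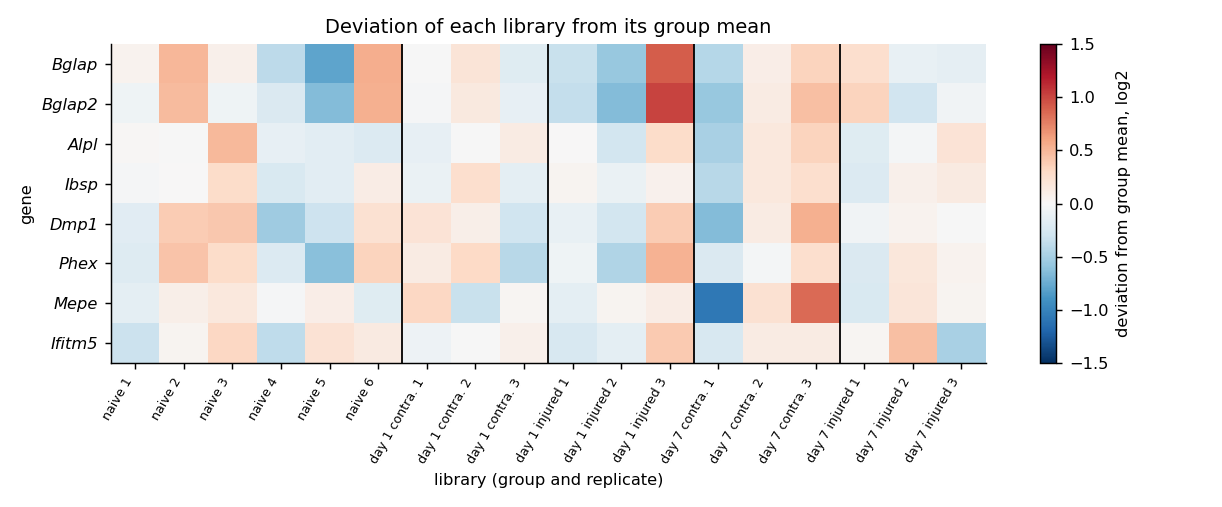
Deviation of each library (columns, in groups parted by lines) from its group mean in log2 CPM for the 8 bone cell genes with at least 1 CPM (rows), from blue (lower) to red (higher). Day 1 injured replicate 3 is red for Bglap and Bglap2, and day 7 contralateral replicate 1 is blue for all 8 genes.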

How the data were processed

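RNA of cartilage caps from 18 libraries (TruSeq stranded total RNA without ribosomal RNA) was sequenced. After trimming, the authors quantified reads with Kallisto against mouse (GRCm38) transcripts and deposited, per transcript, estimated counts, TPM and effective lengths. The labels name a human build, but the transcript identifiers are those of mouse. The authors removed 1 library of this experiment with a low mapping rate, without naming its group. Their models accounted for samples of the same mouse pool, and the labels do not say which libraries these are.

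Deposited estimated counts were the input of the tests, and the deposited TPM were used only for levels per length and for ratios. The 137436 transcripts were matched to GENCODE vM21, which gave a gene for 135107 (98.3%). The rest held 0.667% to 3.90% of the counts of a library and were left out. Estimated counts were summed per gene and rounded. Genes were tested with edgeR 4.0.16 under R 4.3.3 (glmQLFit and glmQLFTest), using 1 coefficient per group, TMM normalization, the edgeR filter on low counts and Benjamini-Hochberg adjustment over all genes tested. The fit held 15 libraries, or 18 where day 7 contralateral knees were compared. A gene was called at FDR of at most 0.05 and at least 1.5-fold. SE is the log2 fold change divided by the square root of F, and intervals are at 95%. CPM were normalized over 18 libraries. Likeness used log2 CPM with a pseudocount of 0.5. The analysis was tested before use on simulated counts with larger changes than those of Ibsp and Mepe, so changes of their size were not simulated.

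Alternatives were DESeq2 1.42.0 (size factors, Wald test), limma-voom (limma 3.58.1), no filter, a transcript length offset, other libraries fitted, other thresholds, the osteocalcin copies summed and each library left out. Named were all 9 genes, the companions called at day 7, and the 10 genes most like them, of which some are not reported here. The genes, lists and companions were chosen with earlier results of these data known.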

Additional observations from a re-analysis of the deposited data

Results flagged for a closer look

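Over 39 bone-related genes, a naïve library lay far from the other 5 in 4 cases. Alpl (158 CPM against 97.6 to 114 CPM), Pth1r (67.1 CPM against 42.5 to 49.6 CPM) and Smpd3 (121 CPM against 63.0 to 83.1 CPM) were all highest in naïve replicate 3. Pdpn was at 45.4 CPM in naïve replicate 5 against 6.09 to 11.6 CPM in the others. Chance flags about 1 in 20 such groups.

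The injury effect differed between day 7 and day 1 for 4 companion genes. Mmp14 (2.02, FDR = 1.21e-04) and Enpp1 (2.18, FDR = 9.77e-04) had a larger effect at day 7, and both were called without day 7 contralateral replicate 1. Sost (-1.85, FDR = 0.0386) and Sp7 (-0.90, FDR = 0.0422) had a lower effect at day 7. Without that replicate their differences were -1.23 (FDR = 0.0775) and -0.78 (FDR = 0.0800), and neither was called.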

How the results depend on the processing

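The count of called genes among the 9 stayed the same in 261 of 276 values over the comparisons and alternatives, and no called fold change reversed. The main count was above 0 only for Ibsp and Mepe against naïve knees and for Mepe against day 1 injured knees. Most unchanged values were therefore counts of 0 that stayed 0, and the total does not measure how stable those calls were. The lower call of Mepe in day 7 injured against naïve knees went to 0 with all 18 libraries fitted, and the count ranged from 0 to 1 when each library was left out. Against day 7 contralateral knees 1 gene (Bglap) was called lower with only the groups compared fitted, and leaving out 1 library gave 0 to 1 lower and 0 to 1 higher. Against day 1 injured knees the lower count was 0 under the transcript length offset, with all 18 libraries fitted and at an FDR of at most 0.01, ranged from 0 to 1 with 1 library left out, and 1 gene (Ibsp) was called higher with no fold limit. For the difference between the injury effects the lower count was 2 by the DESeq2 Wald test and 0 to 3 with 1 library left out. The causes were not tested. Fold changes near 0 that reversed were those of Mepe (0.00902) and Fgf23 (-0.00755) against day 7 contralateral knees under limma-voom, of Mepe in the difference of injury effects under DESeq2 size factors (-0.0105) and DESeq2 (-5.01e-04), and of Ibsp there under limma-voom (0.0019). With 1 library left out, these log2 fold changes took both signs: against naïve knees Phex (-0.0296 to 0.19), Fgf23 (-0.40 to 0.28) and Ifitm5 (-0.0266 to 0.49), against day 7 contralateral knees Alpl (-0.15 to 0.19), Fgf23 (-0.26 to 0.41) and Mepe (-0.41 to 0.41), against day 1 injured knees Alpl (-0.10 to 0.18) and Ifitm5 (-0.30 to 0.21), and in the difference of injury effects Ibsp (-0.16 to 0.10), Mepe (-0.33 to 0.48) and Fgf23 (-0.56 to 0.71). By TPM as deposited the ratio of mean levels, day 7 injured to naïve, was 1.30 for Ibsp and 0.53 for Mepe. No paired analysis was possible because the labels do not say which libraries share mice. The alternative without day 7 contralateral replicate 1 for the companion genes was added after seeing the data. Fgf23 and Bglap3 are limited by depth, and the counts of Bglap and Bglap2 by shared sequence.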
